A study of Mus musculus with 19 samples.

Results

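The genes described here are 9 genes of the acute-phase response and of iron handling, chosen by their symbols from the 24238 genes of the deposited table: Saa3, Lcn2, Hp, Orm1, Cp, Fth1, Tfrc, Slc40a1 and Slc11a1. Their expression was measured by RNA sequencing of epididymal white adipose tissue (eWAT) of male C57BL6/J mice, which were 9 to 10 weeks old at allocation and ate the diets for 17 weeks. The diets crossed the Mg2+ content (0.03% or 0.21% MgO by weight, LowMg or NormMg) with the share of energy from fat (10% or 60% from palm oil, LFD or HFD), and no mouse carried a transgene. The groups were NormMg-LFD (n = 4 mice, replicates 2 to 5), LowMg-LFD (n = 5), NormMg-HFD (n = 5) and LowMg-HFD (n = 5), with 1 library per mouse. Gene positions are from GENCODE M21 (GRCm38). Values are FPKM, fragment counts divided by transcript length and by sequencing depth, so that levels of different genes are compared per length.

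In the acute-phase response, inflammatory cytokines such as IL-1 and IL-6 change the secretion of a set of plasma proteins by the liver, and adipose tissue also makes several of them. The response is tied to iron: haptoglobin binds free haemoglobin, lipocalin 2 binds the siderophores with which bacteria take up iron, and ceruloplasmin oxidises iron so that transferrin can carry it. Cells take up transferrin iron through the transferrin receptor, store it in ferritin and release it through ferroportin. Macrophages recycle iron from engulfed cells, and NRAMP1 moves metal ions out of their phagosomes. Much of this is controlled after transcription: when iron is scarce, iron regulatory proteins bind hairpins called iron-responsive elements, which blocks translation of ferritin and ferroportin mRNA and stabilises transferrin receptor mRNA.

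The hairpins are shown because they mark which of these mRNAs are regulated by iron itself. They were read from GENCODE M21 transcripts (GRCm38), 5′ to 3′, with the 6 loop bases in capitals. The search, which required a CAGTG loop and can miss hairpins with other loops, found 1 in the 5′ untranslated region of Fth1, of Slc40a1 and of Ftl1, the ferritin light chain that is set beside Fth1 below, and 4 in the 3′ untranslated region of Tfrc.
Fth1 (chr19:9982733-9982759, plus strand): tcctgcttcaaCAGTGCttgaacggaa
Ftl1 (chr7:45459780-45459806, minus strand): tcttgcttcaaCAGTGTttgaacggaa
Slc40a1 (chr1:45925466-45925492, minus strand): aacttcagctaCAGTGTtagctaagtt
Tfrc, the first found (chr16:32631220-32631246, plus strand): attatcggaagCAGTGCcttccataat
Tfrc, the second found (chr16:32631599-32631625, plus strand): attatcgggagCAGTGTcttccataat
Tfrc, the third found (chr16:32631664-32631690, plus strand): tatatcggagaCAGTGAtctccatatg
Tfrc, the fourth found (chr16:32631711-32631737, plus strand): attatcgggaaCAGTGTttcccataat
The hairpins are control points for translation and mRNA decay, and the libraries measured mRNA levels alone.

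Before the genes, 4 libraries have to be named. The markers of exocrine pancreas (12 genes, such as Cpa1 and Pnlip) had a mean log2(FPKM + 1) of 7.09 in NormMg-LFD replicate 3, against 0.423 to 0.728 in the 18 other libraries. By the study's methods the sample with pancreatic tissue was a LowMg-HFD one, but no LowMg-HFD library was above 0.685. A list of 15 genes of the epididymal and efferent ducts, which lie beside this fat depot, was added after its genes had been seen to be high. It summed to 98.4 FPKM in NormMg-LFD replicate 4, 225 in LowMg-LFD replicate 4 and 99.0 in LowMg-HFD replicate 4, against 3.08 to 45.3 in the other 16, of which NormMg-LFD replicate 3 was the highest. Adipocyte markers (10 genes, Adipoq and Plin1 among them) were above 0 in every library and summed to between 13570 and 30150 FPKM. Of these 10, 1 rose and 7 fell with fat at normal Mg2+, 1 rose and 3 fell at low Mg2+, and 6 rose and none fell with low Mg2+ on the HFD. Of 7 fibroblast markers 3 rose in each fat comparison and 3 fell with low Mg2+ on the HFD. In the test described below, 24.6% of all genes were higher and 12.8% lower with fat at normal Mg2+. The shares were 12.4% and 3.51% with fat at low Mg2+, and 5.58% and 12.9% with low Mg2+ on the HFD. The part of adipocyte and fibroblast content in the results below was not tested. The libraries held 12986441 to 13027028 reads each, of which 86.12% to 90.41% were mapped.

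Differences were tested in limma on log2(FPKM + 1) across the 8336 genes with FPKM over 8, with Benjamini-Hochberg adjustment over all of them and a threshold of 0.05. A log2 difference on this scale understates the change of a gene with low FPKM. At normal Mg2+ the HFD moved 6 of the 8 members tested: Saa3, Hp, Fth1 and Slc11a1 rose, and Cp and Tfrc fell. Over all genes tested the same comparison called 37.4% (24.6% higher and 12.8% lower). At low Mg2+ the HFD moved 4 of the 8: Saa3, Hp and Slc11a1 rose and Cp fell, against 15.9% of all genes (12.4% higher, 3.51% lower). Low Mg2+ on the HFD lowered 2 of the 8, Saa3 and Slc11a1, against 18.5% of all genes (5.58% higher, 12.9% lower), so that the share of members called was near that of all genes. On the LFD low Mg2+ called none of the 8, and 0.0% of all genes. These shares moved with the mice and groups in the fit. The 1329 genes called for fat at low Mg2+ became 800 without LowMg-HFD replicate 2, 866 without LowMg-HFD replicate 1, 834 without LowMg-LFD replicate 1 and 725 with only the groups compared. The 1542 called for Mg2+ on the HFD became 921 without NormMg-HFD replicate 3. The groups compared did not overlap for 6, 0 and 2 of the 8 members in these first 3 comparisons, beside 32.1%, 9.3% and 12.8% of all genes. With median centring the share of all called genes that were higher moved from 65.8% to 50.1% for fat at normal Mg2+, from 77.95% to 52.8% for fat at low Mg2+ and from 30.2% to 43.3% for Mg2+ on the HFD. Saa3 passed the filter through the HFD groups alone and Tfrc through the LFD groups alone, so that the counts over members that passed are a description. The ninth member, Slc40a1, missed the filter and was read from a fit of genes with FPKM over 1.

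**Figure D1:**
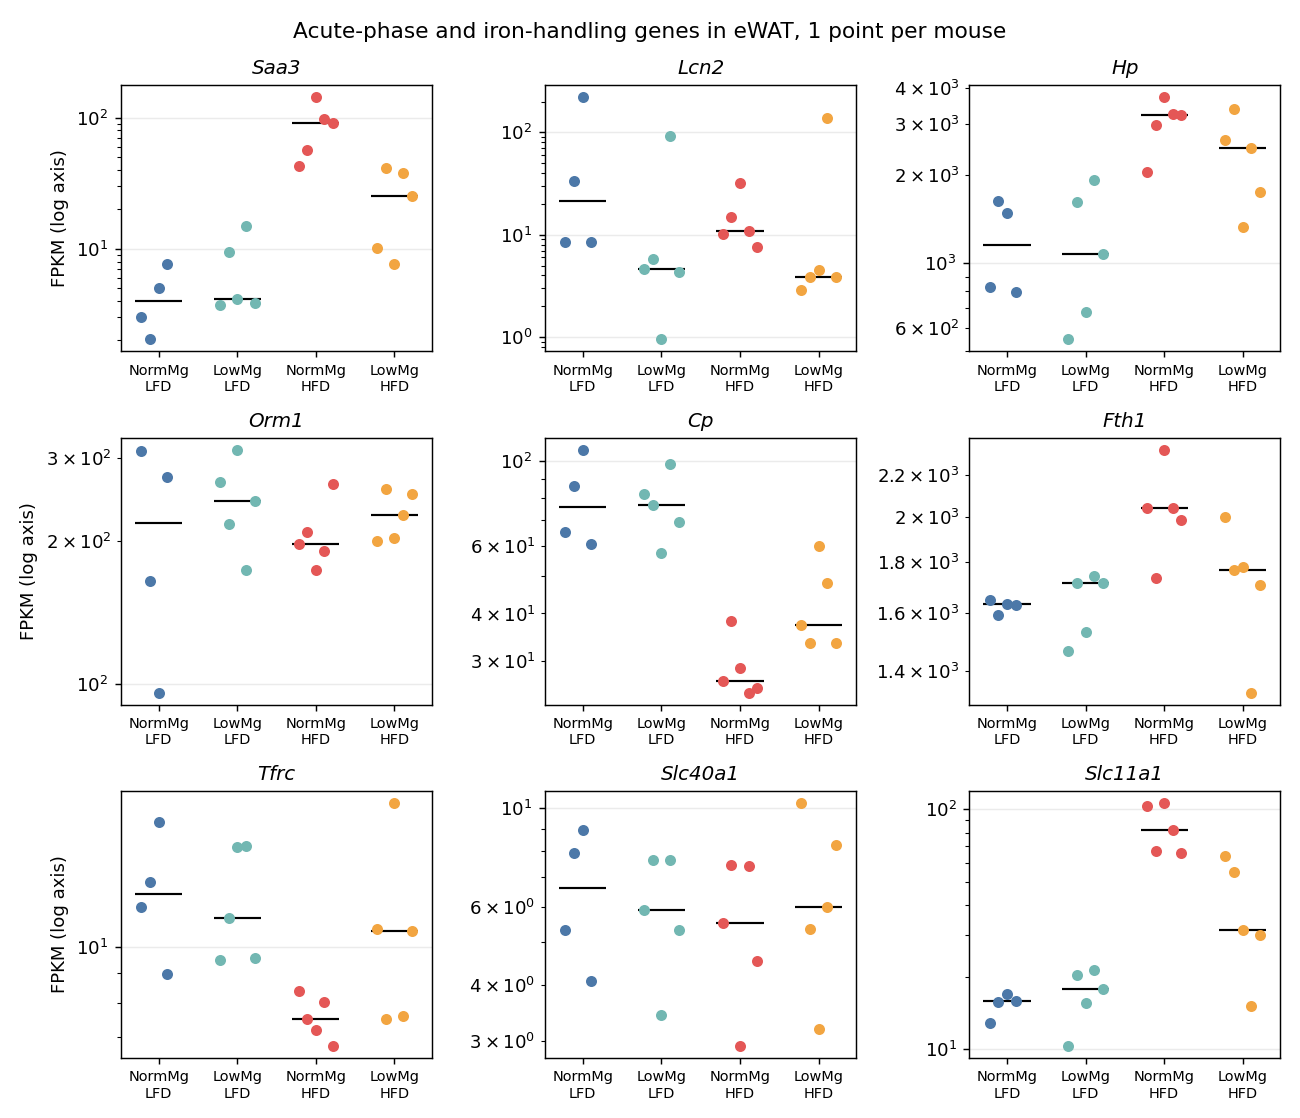
FPKM (log axis) of the 9 genes in each mouse of the 4 diet groups, with the group median as a line. Saa3 and Slc11a1 of all 5 NormMg-HFD mice lie above every mouse of the other groups, Cp of most HFD mice lies below the LFD mice, and Lcn2 has 1 mouse far above the others in each of 3 groups.

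Saa3 (chr7:46711998-46715700, minus strand) encodes serum amyloid A3, the serum amyloid A that mouse adipose tissue and macrophages make. In NormMg-LFD mice it stood at 3.00, 2.04, 5.03 and 7.62 FPKM, and in LowMg-LFD mice at 3.70, 9.50, 4.16, 15.1 and 3.85 FPKM. In NormMg-HFD mice it stood at 43.0, 57.1, 144, 97.3 and 90.5 FPKM, and in LowMg-HFD mice at 10.1, 41.7, 7.65, 37.8 and 25.1 FPKM. All NormMg-HFD mice were above all NormMg-LFD and all LowMg-HFD mice, whereas LowMg-HFD and LowMg-LFD mice overlapped. Saa3 passed the filter through the HFD groups alone, where it was higher. At normal Mg2+ the HFD raised Saa3 by 4.00 ± 0.49 (log2 difference ± SE, adjusted p = 4.8e-06), which is 16.0-fold on this scale. That call was made in all 29 alternative fits, no filter among them (adjusted p up to 4.3e-05). Without the NormMg-LFD library with pancreas genes the difference was 3.76 (adjusted p = 4.3e-05). At low Mg2+ the HFD raised it by 1.54 ± 0.46 (adjusted p = 0.030), a call that was lost when any of 6 single libraries was left out (adjusted p = 0.059 to 0.092): LowMg-LFD replicates 1, 3 and 5 and LowMg-HFD replicates 2, 4 and 5. It was also lost with no filter (adjusted p = 0.093), with only the groups compared (0.074) and with quantile normalization (0.052). Low Mg2+ on the HFD lowered it (log2 difference -1.93 ± 0.46, adjusted p = 0.0077), which held in each of 29 alternative fits (adjusted p 0.0038 to 0.030). The 2 Mg2+ effects, on the LFD and on the HFD, were not shown to differ, since the interaction of -2.46 had an adjusted p of 0.059.

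Saa1 and Saa2, the serum amyloid A genes of liver, were close to 0 throughout, with highest values of 0.61 and 1.18 FPKM in any mouse. Saa4 did not pass 0.69 FPKM. Saa3 was thus the serum amyloid A gene that these libraries contained in quantity. In NormMg-HFD replicate 3, which had the highest Saa3, 10 neutrophil markers summed to 160 FPKM against 23.1 to 33.6 in the other 4 NormMg-HFD mice, and it also had the highest Lcn2 of its group. The part of these cells in the Saa3 level was not tested.

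Lcn2 (chr2:32384633-32388252, minus strand) encodes lipocalin 2, the siderophore-binding acute-phase protein. It was 8.45, 33.8, 221 and 8.48 FPKM in NormMg-LFD mice and 4.63, 5.82, 0.95, 91.7 and 4.33 FPKM in LowMg-LFD mice. It was 10.2, 15.02, 31.8, 10.9 and 7.67 FPKM in NormMg-HFD mice and 2.88, 3.89, 4.51, 137 and 3.84 FPKM in LowMg-HFD mice. The 3 mice far above the others were replicate 4 of NormMg-LFD, LowMg-LFD and LowMg-HFD, the same libraries in which the duct genes were highest. In these 3 the duct gene Adgrg2 was at 61.2, 49.96 and 39.7 FPKM, and at most 30.5 FPKM in the other 16, while Pax8, a transcription factor of duct epithelium, was at 12.7, 7.86 and 7.40 FPKM and at most 3.33 FPKM elsewhere. NormMg-LFD replicate 3 was next in Lcn2, in Adgrg2 and in Pax8. The 3 libraries highest in duct genes did not share all of these genes. Of the 15, 6 were at 0 in NormMg-LFD replicate 4, 5 in LowMg-HFD replicate 4 and none in LowMg-LFD replicate 4. In NormMg-LFD replicate 3 also 6 were at 0. The 10 mesothelial markers were also high in the 3 libraries (132, 131 and 114 FPKM in sum), and as high in NormMg-LFD replicate 5 (134 FPKM), whose Lcn2 was 8.48 FPKM. Outside the 3 libraries Lcn2 ran from 0.95 to 33.8 FPKM. The part of duct and mesothelial tissue in the Lcn2 level was not tested.

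None of the Lcn2 differences passed the threshold over all 19 mice. The fat effect was -1.01 (95% interval -3.34 to 1.33) at normal and 0.18 (-2.02 to 2.38) at low Mg2+, and the Mg2+ effect was -0.62 (-2.83 to 1.58) on the HFD. The intervals are wide enough to hold large changes in either direction. With LowMg-HFD replicate 4 set aside, Lcn2 of the other LowMg-HFD mice, 2.88 to 4.51 FPKM, lay below that of all 5 NormMg-HFD mice. That library stood out by its Lcn2 itself, so this is a description of the remaining mice and not a test. In the limma fit without the 3 libraries highest in duct genes, the Mg2+ effect on the HFD was -1.60 (adjusted p = 0.019). Those libraries also held the 3 highest Lcn2 values, so that this call is a description too. With any 1 mouse left out the adjusted p was at least 0.24. Slc22a17, which encodes a cell-surface receptor of lipocalin 2, fell with the HFD at normal Mg2+ (-0.94, adjusted p = 0.00067) and rose with low Mg2+ on the HFD (0.66, adjusted p = 0.015).

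**Figure D2:**
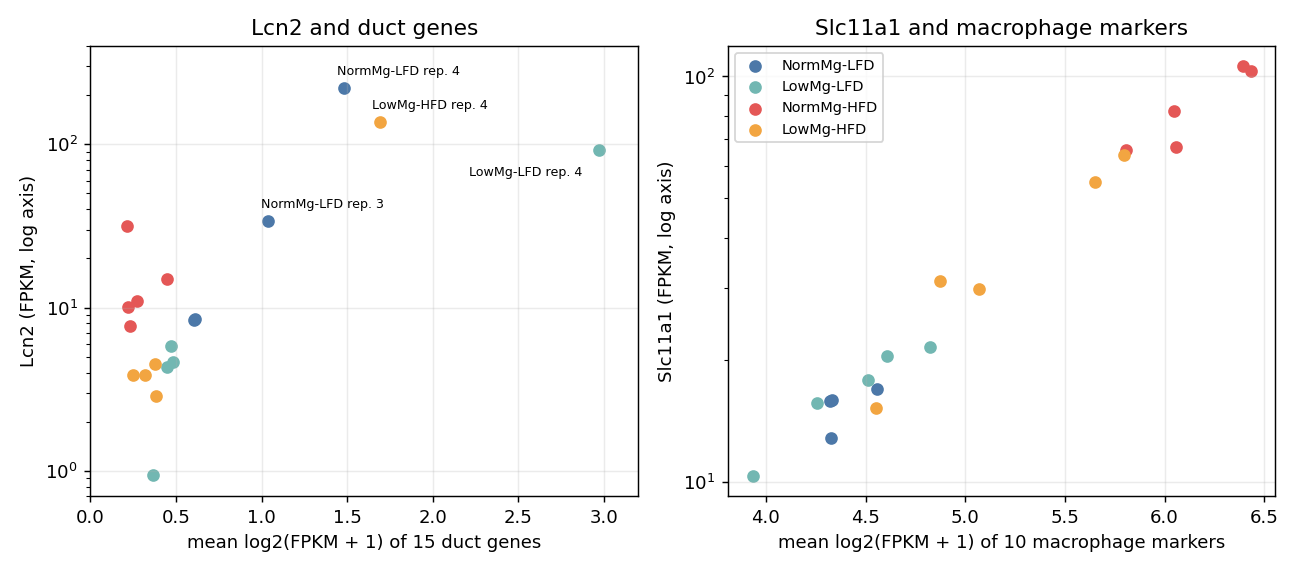
Left, Lcn2 (FPKM, log axis) against the mean log2(FPKM + 1) of 15 duct genes in each of the 19 libraries. Right, Slc11a1 against that of 10 macrophage markers. The 3 libraries highest in duct genes hold the 3 highest Lcn2 values (221, 137 and 91.7 FPKM), and Slc11a1 rises with the macrophage markers from 10.4 to 106 FPKM.

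Hp (chr8:109575128-109579172, minus strand) encodes haptoglobin, which captures free haemoglobin and is made by adipocytes as well as liver. It was the most abundant acute-phase member, at 831, 1635, 1481 and 794 FPKM in NormMg-LFD mice and 548, 1621, 679, 1926 and 1078 FPKM in LowMg-LFD mice. NormMg-HFD mice had 2062, 2974, 3714, 3256 and 3231 FPKM, all above the NormMg-LFD mice. LowMg-HFD mice had 2654, 3372, 1335, 2484 and 1758 FPKM and overlapped with both LowMg-LFD and NormMg-HFD mice. The HFD raised Hp by 1.41 ± 0.34 at normal Mg2+ (adjusted p = 0.0032), and by 1.59 (adjusted p = 0.0032) without the library with pancreas genes. At low Mg2+ the rise was 1.08 ± 0.32 (adjusted p = 0.030), and it was lost without LowMg-LFD replicate 1 or 3 or LowMg-HFD replicate 1 or 2 (adjusted p = 0.072 to 0.098), with no filter (0.10), with only the groups compared (0.081), and with LowMg-HFD replicate 4 left out and another filter (0.051). The Mg2+ effect on the HFD was -0.44 (95% interval -1.12 to 0.24, adjusted p = 0.37).

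Orm1 (chr4:63344560-63348163, plus strand) encodes orosomucoid 1, an acid glycoprotein that binds lipophilic molecules in plasma. Its FPKM ran from 95.9 to 311 (median 219) in NormMg-LFD, 174 to 312 (median 244) in LowMg-LFD, 174 to 264 (median 197) in NormMg-HFD and 200 to 258 (median 227) in LowMg-HFD mice. All 4 groups overlapped. No difference passed the threshold, and the fat effect at normal Mg2+ was 0.10 (95% interval -0.42 to 0.62), with a direction that turned under other scalings. Its relatives behaved unlike it. Orm3 was 15.7 ± 6.2 FPKM (SD, n = 4) in NormMg-LFD, 1.75 ± 1.42 in NormMg-HFD and 7.61 ± 5.28 FPKM in LowMg-HFD mice, a fall with fat of -2.64 (adjusted p = 8.1e-05) and a rise of 1.54 with low Mg2+ on the HFD (adjusted p = 0.012). It passed the filter through LowMg-LFD mice alone, a group in neither comparison, and with no filter the adjusted p were 0.00045 and 0.041. Orm2 did not pass the filter and was highest in NormMg-HFD mice, at 2.96 to 8.47 FPKM. The 3 genes are close copies, so that reads could be split between them, and their separate values are uncertain.

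Cp (chr3:19957054-20009145, plus strand) encodes ceruloplasmin, the copper-containing ferroxidase that is both an acute-phase protein and a partner of ferroportin. It was 65.3, 86.3, 107 and 60.8 FPKM in NormMg-LFD mice and 81.9, 76.9, 57.6, 98.2 and 69.1 FPKM in LowMg-LFD mice. It was 26.7, 38.3, 28.9, 24.9 and 25.6 FPKM in NormMg-HFD mice and 37.2, 33.5, 59.9, 48.0 and 33.5 FPKM in LowMg-HFD mice. Unlike Saa3 and Hp it thus stood lower on the HFD: it fell by 1.42 on the log2 scale at normal Mg2+ (SE 0.19, adjusted p = 1.5e-05) and by 0.86 at low Mg2+ (SE 0.18, adjusted p = 0.0042), and both calls held in all 29 alternative fits. Without the library with pancreas genes the difference at normal Mg2+ was -1.37 (adjusted p = 0.00012). The NormMg groups did not overlap, while 1 LowMg-HFD mouse, replicate 3, lay within the LowMg-LFD range. LowMg-HFD mice were 0.52 ± 0.18 above NormMg-HFD mice, just short of the threshold (adjusted p = 0.055), and the call was made in 8 of the 29 alternative fits, median centring among them (0.58, adjusted p = 0.026). Markers of other tissue moved with Cp. The 10 mesothelial markers summed to 49.4 to 134 FPKM in NormMg-LFD, 26.8 to 131 in LowMg-LFD, 13.5 to 31.3 in NormMg-HFD and 24.4 to 114 in LowMg-HFD mice, with none at 0 in any library, and the 15 duct genes to 17.0 to 98.4, 9.64 to 225, 3.08 to 7.70 and 4.49 to 99.0 FPKM. The highest Cp of each LFD group was in its replicate 4, a library high in duct genes, while in LowMg-HFD mice it was in replicate 3. With each group's mean removed, Cp and Lcn2 had r = 0.67 over the 19 mice, as a description. Without the 3 libraries highest in duct genes the log2 difference of Cp with fat was -1.27 (adjusted p = 7.4e-05) at normal and -0.82 (adjusted p = 0.0070) at low Mg2+. The part of duct and mesothelial tissue in the Cp level was not tested.

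Fth1 (chr19:9980598-9985098, plus strand) encodes the ferritin heavy chain, which oxidises iron for storage, and was among the most abundant mRNAs of the set in every group. It was 1648, 1592, 1634 and 1631 FPKM in NormMg-LFD mice and 1465, 1714, 1533, 1745 and 1715 FPKM in LowMg-LFD mice. NormMg-HFD mice had 2039, 1734, 2331, 2039 and 1984 FPKM and LowMg-HFD mice 1999, 1768, 1778, 1332 and 1709 FPKM. All NormMg-HFD mice lay above all NormMg-LFD mice, but only 1734 against 1648 FPKM separated the nearest of them. The rise with fat at normal Mg2+ was 0.31 ± 0.11 (adjusted p = 0.030), beside a median of 0.07 over all genes. It was lost with median centring (0.21, adjusted p = 0.16), with quantile normalization (adjusted p = 0.073), with no filter (0.15), without the library with pancreas genes (0.30, adjusted p = 0.070), and without any of NormMg-LFD replicates 2 and 5 and NormMg-HFD replicates 1, 3 and 4 (adjusted p = 0.053 to 0.080). The Mg2+ effect on the HFD was -0.24 (adjusted p = 0.10), and -0.48 with quantile normalization (adjusted p = 0.012).

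The light chain, Ftl1, differed more between the groups than the heavy chain. Ftl1 rose with fat at normal Mg2+ by 1.21 (adjusted p = 1.7e-05), fell with low Mg2+ on the HFD by 0.81 on the log2 scale (adjusted p = 0.0030), and had an interaction of -1.03 (adjusted p = 0.045), which held in 9 of 28 alternative fits. The ratio of Ftl1 to Fth1 in each mouse, a measure added after the values were seen, was 0.944, 0.981, 1.02 and 0.985 in NormMg-LFD mice and 1.57, 1.09, 1.06, 1.10 and 0.984 in LowMg-LFD mice. It was 1.95, 1.74, 1.98, 1.88 and 1.66 in NormMg-HFD mice and 1.47, 1.56, 1.02, 1.21 and 1.04 in LowMg-HFD mice. All NormMg-HFD mice were above every other mouse, and LowMg-HFD mice overlapped with LowMg-LFD mice. The mean ratio was 1.84 ± 0.14 (SD, n = 5) on the NormMg-HFD against 0.983 ± 0.032 (n = 4) on the NormMg-LFD (exact permutation test, two-sided, p = 0.016, adjusted over 4 comparisons p = 0.032), and without the library with pancreas genes the difference was 0.858 (exact permutation p = 0.036). It was 1.26 ± 0.25 (n = 5) on the LowMg-HFD, lower than on the NormMg-HFD (exact permutation p = 0.0079, adjusted p = 0.032). Both p-values are the smallest these group sizes allow. The ratio differed by 0.10 for fat at low Mg2+ (exact permutation p = 0.54) and by 0.18 for Mg2+ on the LFD (exact permutation p = 0.048, adjusted p = 0.063). The latter dropped to 0.074 without LowMg-LFD replicate 1, and its exact permutation p was 0.11 without the library with pancreas genes. These p-values double the smaller tail, and counting differences of either sign that are at least as large gives an exact permutation p of 0.079 for Mg2+ on the LFD. Both ferritin genes have near-identical processed copies in the genome that can share their reads.

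**Figure D3:**
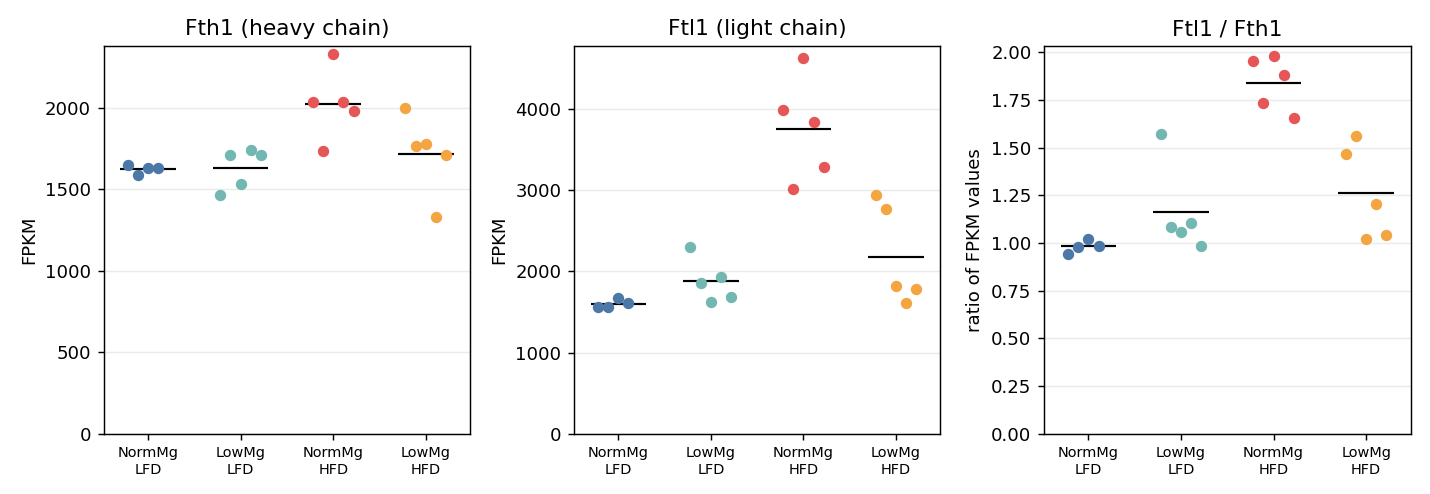
FPKM of Fth1 and Ftl1 and their ratio in each mouse, with the group mean as a line and axes from 0. The ratio of the 5 NormMg-HFD mice, 1.66 to 1.98, lies above that of all other mice.

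Tfrc (chr16:32608920-32632794, plus strand) encodes transferrin receptor 1, the main entry of transferrin iron. It was 11.7, 12.9, 16.3 and 8.98 FPKM in NormMg-LFD mice and 9.49, 11.2, 14.8, 14.9 and 9.57 FPKM in LowMg-LFD mice. It was 8.40, 7.53, 7.20, 8.05 and 6.77 FPKM in NormMg-HFD mice and 10.7, 7.52, 17.6, 7.60 and 10.6 FPKM in LowMg-HFD mice. NormMg-HFD mice were all below the NormMg-LFD mice, and the LowMg-HFD mice spread over the whole range. Tfrc fell by 0.62 on the log2 scale with fat at normal Mg2+ (SE 0.21, adjusted p = 0.022), and the call was lost without NormMg-LFD replicate 3 (-0.60, adjusted p = 0.056) or replicate 4 (-0.49, adjusted p = 0.083), the libraries with pancreas and with duct genes. Tfrc passed the filter through the LFD groups alone, where it was higher, and with no filter the call was lost (adjusted p = 0.053). At low Mg2+ the fat effect was -0.18 (95% interval -0.58 to 0.23). Its ligand transferrin, Trf, was far more abundant and fell with the HFD at both Mg2+ levels, from 1836 ± 409 (SD, n = 4) to 897 ± 61.5 FPKM (n = 5) at normal Mg2+ (-1.004, adjusted p = 1.3e-05) and from 2138 ± 241 to 1151 ± 112 FPKM (n = 5 each) at low Mg2+ (-0.89, adjusted p = 0.00050). The second transferrin receptor, Tfr2, rose in both fat comparisons, by 1.05 (adjusted p = 0.0090) and 1.32 (adjusted p = 0.0040). It passed the filter through the HFD groups alone, where it was higher, and with no filter the adjusted p were 0.026 and 0.016.

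Slc40a1 (chr1:45908068-45926523, minus strand) encodes ferroportin, the iron exporter, and was among the least abundant members. Its FPKM ran from 4.10 to 8.91 (median 6.63) in NormMg-LFD, 3.43 to 7.66 (median 5.90) in LowMg-LFD, 2.93 to 7.46 (median 5.51) in NormMg-HFD and 3.19 to 10.2 (median 6.0) in LowMg-HFD mice. The groups overlapped. In the wider fit the fat effect was -0.21 (95% interval -0.82 to 0.40) at normal and 0.09 (-0.49 to 0.66) at low Mg2+, and the Mg2+ effect on the HFD was 0.19 (-0.39 to 0.77), none of them called.

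Slc11a1 (chr1:74375195-74386062, plus strand) encodes NRAMP1, the divalent metal transporter of the phagosome membrane of macrophages and neutrophils. It was 12.8, 15.8, 17.0 and 15.9 FPKM in NormMg-LFD mice and 10.4, 20.4, 15.6, 21.5 and 17.9 FPKM in LowMg-LFD mice. NormMg-HFD mice had 103, 66.8, 106, 82.0 and 65.8 FPKM and LowMg-HFD mice 64.1, 55.1, 31.3, 15.2 and 29.9 FPKM. NormMg-HFD mice were above every other mouse, and 4 of the 5 LowMg-HFD mice were above all LowMg-LFD mice, the exception being replicate 4. The HFD raised Slc11a1 by 2.37 ± 0.30 at normal Mg2+ (adjusted p = 6.3e-06, 5.16-fold), and by 2.38 (adjusted p = 4.1e-05) without the library with pancreas genes. At low Mg2+ the rise was 1.02 ± 0.28 (adjusted p = 0.019), lost without LowMg-LFD replicate 1 or LowMg-HFD replicate 1 or 2 (adjusted p = 0.061 to 0.065), with no filter (0.063) and with only the groups compared (0.079). Low Mg2+ on the HFD lowered it (log2 difference -1.23 ± 0.28, adjusted p = 0.0059) in all 29 alternative fits. The interaction was -1.34 (adjusted p = 0.080).

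The macrophage markers moved alongside Slc11a1. Of 10 (Adgre1, Cd68, Itgax and Lyz2 among them), 8 rose and 1 fell with fat at normal Mg2+ (8 and 0 without the library with pancreas genes), 6 rose at low Mg2+, and 8 fell with low Mg2+ on the HFD. Their summed FPKM was 491 to 591 in NormMg-LFD, 372 to 697 in LowMg-LFD, 1749 to 2577 in NormMg-HFD and 590 to 1548 in LowMg-HFD mice, and none of them was at 0 in any group. Of all genes tested 24.6% were higher and 12.8% lower with fat at normal Mg2+, and 12.4% and 3.51% at low Mg2+. With low Mg2+ on the HFD 5.58% were higher and 12.9% lower. Itgax passed the filter through the HFD groups alone and Fcgr1 through NormMg-HFD mice alone, where they were higher. The counts of these markers are thus a description. In bulk tissue, fewer cells of a type and less RNA per cell cannot be told apart. Across the 19 mice the genes whose log2(FPKM + 1) was most like that of Slc11a1 included Lyz2 (lysozyme 2, Pearson r = 0.99) and Pirb (r = 0.99). With each group's mean removed, Fth1 followed Slc11a1 from mouse to mouse (r = 0.86), and Saa3 did not (r = 0.02). These are descriptions over mice that share diets, with no test.

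The tested genes most like the other members across the 19 mice were found in the same way. For Saa3 they were Lox (lysyl oxidase, which cross-links collagen, r = 0.94), Tph2 (r = 0.93) and Triap1 (r = 0.93), and for Hp they were Lox (r = 0.92), Hs6st1 (r = 0.91) and Svep1 (r = 0.91). For Cp they were Alad (an enzyme of haem synthesis, r = 0.95), Hoxa7 (r = 0.95) and Mocs1 (r = 0.95). For Fth1 they were Nagk (r = 0.92), Lrp1 (r = 0.92) and Card19 (r = 0.91), and for Tfrc they were Cd209f (r = 0.86), Crebl2 (r = 0.85) and Prkaa1 (r = 0.83). For Lcn2 they were Chd9 (r = 0.93), Bex3 (r = 0.92) and Tprkb (r = 0.92), for Orm1 Ptgr2 (r = 0.87), Dbi (r = 0.80) and Ghitm (r = 0.78), and for Slc40a1 they included Etl4 (r = 0.80) and Nktr (r = 0.75). Saa3 and Hp thus shared Lox.

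**Figure D4:**
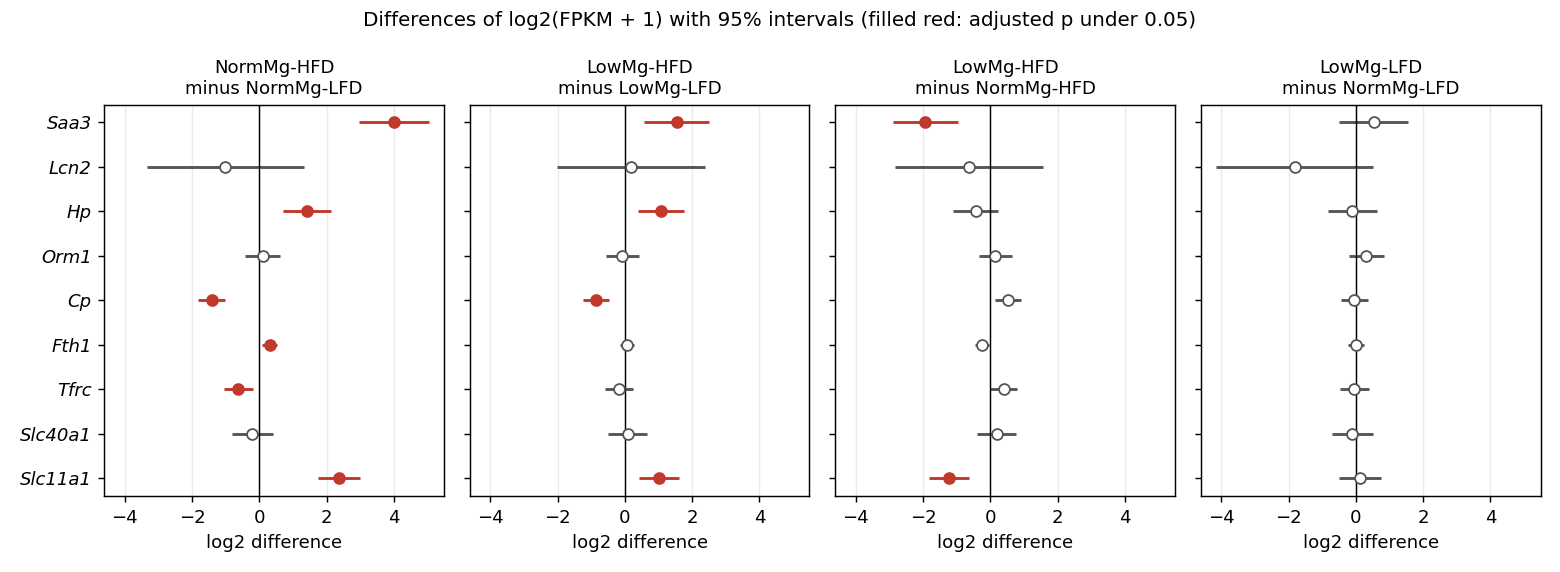
Log2 differences of the 9 genes in 4 comparisons, with 95% intervals from limma. Filled red points passed the threshold: 6, 4, 2 and 0 genes from left to right, and Slc40a1 is from the fit of genes with FPKM over 1.

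Saa3 and Slc11a1 were the members that fell with low Mg2+ on the HFD, and the 250 bases before their start sites are shown to compare their promoters. They come from the RefSeq promoter table (GRCm38.p6), which holds 6 of the 9 members, Saa3, Lcn2, Cp, Fth1, Tfrc and Slc11a1. Capitals mark matches on either strand to TTNNGCAA, a core of sites for C/EBP, the activators of acute-phase genes, and to GAGGAA, a core of sites for the myeloid factor PU.1.
Saa3 (chr7:46715677-46715926, minus strand): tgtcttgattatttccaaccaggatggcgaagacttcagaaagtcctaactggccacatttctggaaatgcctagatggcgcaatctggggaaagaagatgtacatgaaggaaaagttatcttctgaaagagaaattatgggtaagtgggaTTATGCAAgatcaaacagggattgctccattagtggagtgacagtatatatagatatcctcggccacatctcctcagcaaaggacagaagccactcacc
Slc11a1 (chr1:74374953-74375202, plus strand): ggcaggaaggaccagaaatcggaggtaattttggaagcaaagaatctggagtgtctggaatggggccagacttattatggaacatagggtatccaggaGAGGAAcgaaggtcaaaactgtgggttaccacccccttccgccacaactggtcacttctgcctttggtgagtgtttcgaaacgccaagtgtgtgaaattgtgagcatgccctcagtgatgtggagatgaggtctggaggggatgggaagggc
The Saa3 window held 1 match to the C/EBP letters, at positions -99 to -92 from the start site, and the Slc11a1 window 1 match to the PU.1 letters, at positions -152 to -147. The C/EBP letters were also found in windows of Lcn2, Cp (at a second start site) and Fth1 (2 matches, at a second start site), and the PU.1 letters also in that of Lcn2, so that neither match set Saa3 or Slc11a1 apart from the other members. Of 32851 promoter windows of this length, 9.56% held the C/EBP letters and 23.3% the PU.1 letters. Neither window held the letters TTCNNNGAA (STAT, in 7.02% of windows).

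Among 34 other acute-phase genes, 13 were tested, and 7 rose and 3 fell with fat at normal Mg2+, with a median log2 difference of 0.54 beside 0.07 over all genes, of which 24.6% were higher and 12.8% lower. Those that rose included Mt2 (metallothionein 2, 1.25), Cd14 (an endotoxin co-receptor, 1.23), Lbp (the endotoxin-binding protein, 1.05) and Cfb (complement factor B, 0.89). Mt2 was called in 22 of 29 alternative fits (adjusted p up to 0.093), and lay between 105 and 511 FPKM in NormMg-HFD mice. Those that fell were Orm3, Alb (albumin, -2.40), which the liver lowers in the acute phase, and Rbp4 (retinol-binding protein). Without the library with pancreas genes 4 rose and 3 fell. At low Mg2+ 4 rose and none fell, among them Lbp (1.29, adjusted p = 0.00073) and Cfb (0.88, adjusted p = 0.00087). Of all genes 12.4% were higher and 3.51% lower in that comparison. With low Mg2+ on the HFD, Cd14 (-1.17) and Fn1 (fibronectin, -0.81) fell, and Orm3 (1.54) and Alb (1.65) rose. Alb passed the filter through the LFD groups alone, and with no filter its adjusted p were 0.00053 for fat at normal Mg2+ and 0.020 here. Lbp and Cfb were not called for low Mg2+ on the HFD. Albumin was low throughout, at 14.7 FPKM in the group with the highest mean, and 9 hepatocyte markers summed to at most 22.1 FPKM in any library.

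The cytokine side of the response was mostly near 0: Il6 and Tnf had group means of at most 1.51 FPKM, and neither passed the filter. Il1b was 26.4 FPKM in NormMg-HFD replicate 3, the library with the highest neutrophil markers, and 0.25 to 0.51 FPKM in the other 4 mice of that group. Of 22 signalling genes 10 were tested, and 4 rose and none fell with fat at normal Mg2+, a share near the 37.4% of all genes called. With median centring, with quantile normalization or without the library with pancreas genes 3 rose. Il1rn, the antagonist of the IL-1 receptor, passed the filter through NormMg-HFD mice alone, so that its place among the genes called is a description. It was 0.43 to 1.85 FPKM in NormMg-LFD and 23.1 to 46.4 FPKM in NormMg-HFD mice (4.16, adjusted p = 1.4e-06). It was 2.92 to 21.0 FPKM in LowMg-HFD mice, below all NormMg-HFD mice (-1.83, adjusted p = 0.0044). With no filter these adjusted p were 1.3e-05 and 0.016. Cebpb, a C/EBP factor, had differences of 1.15 (adjusted p = 9.0e-05) and -0.57 (adjusted p = 0.033). Both rose with fat at low Mg2+ as well, Il1rn by 1.94 and Cebpb by 0.57. Cebpb was called in 18 of 29 alternative fits for fat at low Mg2+ (adjusted p up to 0.12) and in 20 of 29 for Mg2+ on the HFD (up to 0.10), and lost both calls with median centring (0.095 and 0.052).

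Among 18 other genes of iron transport, 10 were tested. With fat at normal Mg2+ 3 rose (Tfr2, the ferrireductase Steap3 and the haem-haemopexin receptor Lrp1) and 4 fell (Trf, Slc22a17, the haptoglobin-haemoglobin receptor Cd163 and the ferrireductase Steap4), with a median log2 difference of -0.30 beside 0.07 over all genes, of which 24.6% were higher and 12.8% lower. Steap4 was called in 23 of 29 alternative fits (adjusted p up to 0.12) and Cd163 in 15 (up to 0.13). Without the library with pancreas genes 3 rose and 2 fell. With low Mg2+ on the HFD, Steap3 (-0.66) and Lrp1 (-0.57) fell, and Slc22a17 (0.66) and Steap4 (0.48) rose. At low Mg2+ Tfr2 and Trf were the genes called with fat, Steap3 was at 0.43 (adjusted p = 0.053), and 3 rose and 1 fell without the 3 duct libraries.

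Among 20 genes of iron storage and haem, 15 were tested, and 7 rose and 1 fell with fat at normal Mg2+ (5 and 1 without the library with pancreas genes), where 24.6% of all genes were higher and 12.8% lower. Hmox1, haem oxygenase 1, which frees iron from haem, rose by 2.05 (adjusted p = 2.1e-06). Blvra, biliverdin reductase, which acts after it, rose by 1.18, and Slc48a1, the haem exporter of the phagolysosome, by 0.98. At low Mg2+ 4 rose and none fell: Hmox1 (0.80), Hmox2 (0.68), Blvra (0.86) and Slc48a1 (0.57), against 12.4% higher and 3.51% lower of all genes. Hmox2 was called in 24 of 29 alternative fits (adjusted p up to 0.090) and Hmox1 in 27 (up to 0.069). With low Mg2+ on the HFD 4 fell and none rose: Hmox1 (-1.09, adjusted p = 0.0028), Ftl1, Slc48a1 (-0.37) and the iron chaperone Pcbp1 (-0.23), against 5.58% higher and 12.9% lower of all genes. With median centring 2 fell and none rose, and with quantile normalization 2 fell and 1 rose: Slc48a1 (adjusted p = 0.066 and 0.091) and Pcbp1 (0.079 and 0.11) lost their calls. Pcbp1 was called in 18 of 29 alternative fits.

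Of 17 genes of iron regulation, 10 were tested, and 5 rose and 3 fell with fat at normal Mg2+ (4 and 1 without the library with pancreas genes), beside the same shares of all genes, 24.6% and 12.8%. Aco1, the iron regulatory protein 1 that binds the hairpins shown above, fell at normal (-0.55, adjusted p = 0.00011) and at low Mg2+ (-0.47, adjusted p = 0.0019). Fbxl5, which targets iron regulatory proteins for degradation when iron is abundant, rose by 0.58 (adjusted p = 0.00036) and 0.52 (adjusted p = 0.0026). Hif1a, whose protein is degraded when oxygen and iron are plentiful, rose by 0.70 at normal Mg2+ and fell by 0.45 on the log2 scale with low Mg2+ on the HFD (adjusted p = 0.022). The latter was called in 26 of 29 alternative fits, and lost with no filter (0.053), without NormMg-HFD replicate 3 (0.075) and without LowMg-HFD replicate 1 (0.056). None of the 58 listed genes tested was called for Mg2+ on the LFD. Slc22a17 (1.18) and Ftl1 (-1.03) were the listed genes called in the interaction, each at an adjusted p of 0.045.

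**Figure D5:**
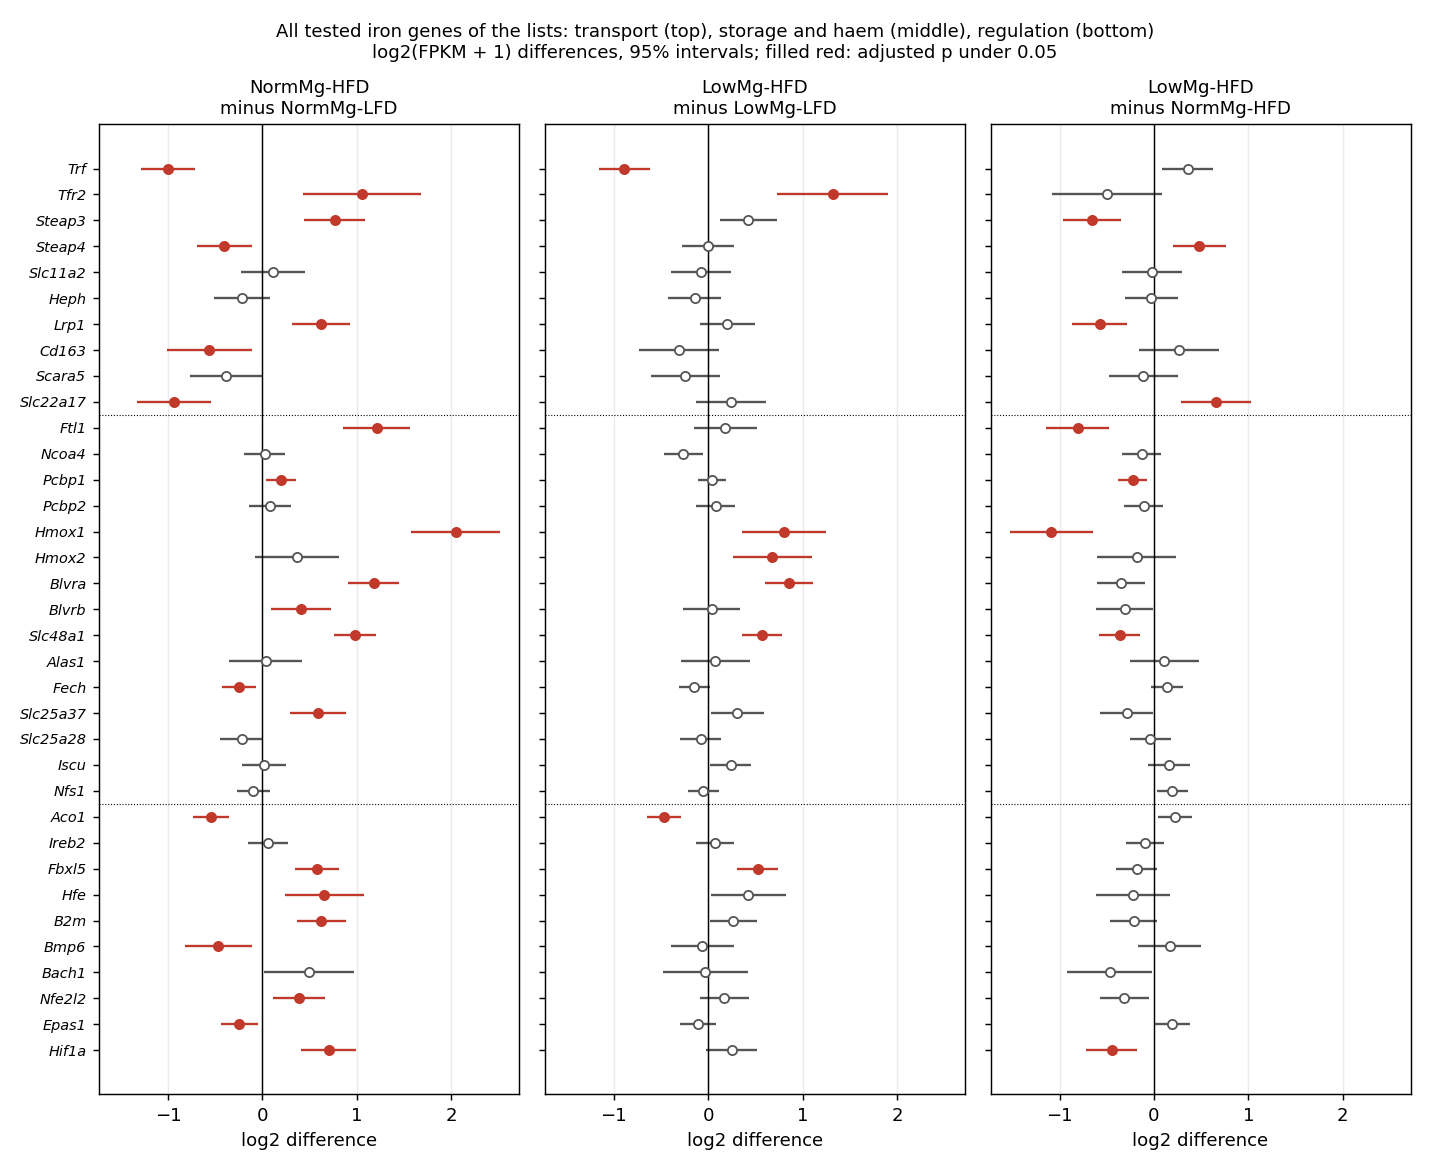
Log2 differences with 95% intervals of the 35 tested genes of iron transport, storage and haem, and regulation, in 3 comparisons. Filled red points passed the threshold, which in the panel on the right, Mg2+ on the HFD, include Hmox1 (-1.09), Ftl1 (-0.81) and Slc22a17 (0.66).

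Low Mg2+ on the LFD called none of the 8 members by limma, and none reached an unadjusted p of 0.05, against 6.56% of all genes (547 genes) that did. The 2 groups overlapped for all 8, and did not overlap for 1.79% of all genes. The intervals show how far an effect could still reach: -0.50 to 1.56 for Saa3, -0.51 to 0.74 for Slc11a1 and -0.45 to 0.37 for Cp. In the interaction of Mg2+ and fat none of the 8 was called, beside 1.25% of all genes (0.492% higher, 0.756% lower), and Saa3, Cp and Slc11a1 had an unadjusted p under 0.05, which 20.4% of all genes had. The 104 interaction calls behind the 1.25% were not stable. They fell to 0 with the replicate block and without any of 8 single mice (NormMg-LFD replicates 2 and 3, LowMg-LFD replicate 5, NormMg-HFD replicates 1, 3 and 4 and LowMg-HFD replicates 3 and 5), were 24 with a pseudocount of 0.1 and 2 with no filter, and rose to 482 without LowMg-HFD replicate 2.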

How the data were processed

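The authors extracted total RNA with TRIzol and had it sequenced as single-end reads, which they mapped to the mouse transcriptome (GRCm38/mm10). Per the labels HISAT, Bowtie2 and RSEM v1.2.31 were used. The deposited values are FPKM of each gene, beside read totals (counts of reads per sample) and the percent of reads mapped, also deposited. From the 24238 genes 1 with a non-numeric entry was removed, 12 broken lines were dropped, and 26 symbols turned into dates were restored. No column was left unmapped. FPKM hold no counts per gene, so the counting error of a value is unknown.

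Mice were grouped by the labels, with 1 library each, and p-values measure the spread between these mice. Genes were kept if a group's mean FPKM exceeded 8 and 4 or more of its mice did so too. Their log2(FPKM + 1) was fitted over all 4 groups in limma (version 3.58.1, R 4.3.3) with a trended prior variance. P-values are two-sided and Benjamini-Hochberg adjusted over 8336 genes. The fit was tested on simulated data. Hairpins were searched in GENCODE transcripts as a C, 5 stem bases, the loop CAGTG with A, C or T, and 5 bases pairing with the stem. Matplotlib 3.10.9 drew the figures.

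The members, lists and tests were chosen with earlier results of these data known. Named genes are the members, the called genes of each list with the largest differences (up to 4 per comparison and direction), close relatives of members, and for each member the 3 tested genes most like it over the mice, of which 2 are not reported here. Adgrg2, Pax8, Il6, Tnf, Il1b, Rbp4 and Cd163 and the duct list were singled out after their values were seen. Alternatives changed the pseudocount (0.1), the FPKM filter (1, or no filter), the scaling (median or quantile), the samples fitted (the compared groups, or each mouse left out), the samples and the filter together (LowMg-HFD replicate 4 left out and log2(FPKM + 1) over 3) and added a replicate block. The median log2 difference of all genes with fat was 0.07 at normal and 0.10 at low Mg2+, and -0.03 and -0.01 after median centring.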

Additional observations from a re-analysis of the deposited data

Results flagged for a closer look

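Lcn2 of LowMg-HFD replicate 4, at 136.99 FPKM, stood apart from the 4 other mice of its group (2.88 to 4.51 FPKM) by more than the 95% critical value of Dixon's test on log2(FPKM + 1) (ratio 0.902). On that scale it was 1 such mouse among 36 groups of values of the 9 genes, and chance gives about 1 in 20. On FPKM itself, a scale added after the values were seen, there were 3: that mouse (0.988), replicate 4 of LowMg-LFD at 91.7 FPKM (0.946) and replicate 4 of NormMg-LFD at 221 FPKM (0.881), all for Lcn2. The 15 duct genes summed to 99.0 FPKM in that library.

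The exocrine pancreas markers had a mean log2(FPKM + 1) of 7.091 in NormMg-LFD replicate 3, against at most 0.728 in the 18 other libraries. Values without that library are given in the report for the members called with fat at normal Mg2+ and for the counts over gene lists and macrophage markers in that comparison. The counts of adipocyte and fibroblast markers in that comparison (1 higher and 7 lower of 10, and 3 higher of 7) had the same values without it.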

How the results depend on the processing

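The count of members called for fat at low Mg2+ was 4 and became 1 with no filter, 1 with only the groups compared and 2 with LowMg-HFD replicate 4 left out and the filter set to log2(FPKM + 1) over 3 (3 without that mouse alone), and ran from 1 to 4 with 1 mouse left out. For Mg2+ on the HFD it was 2 and became 4 with quantile normalization. For the interaction it was 0 and became 1 with median centring and 1 with quantile normalization, and ran from 0 to 2 with 1 mouse left out (2 without LowMg-HFD replicate 2). Saa3 was called in the interaction with either scaling (adjusted p = 0.050 and 0.039), and Slc11a1 without LowMg-HFD replicate 1 or 2 (adjusted p = 0.026 and 0.038). The count of listed pathway genes called in the interaction was 2 and became 0 with a pseudocount of 0.1, a filter of FPKM 1, no filter, the replicate block, the changed mouse and filter together, or without the 3 duct libraries, 4 with median centring and 5 with quantile normalization, and ran from 0 to 6 with 1 mouse left out (6 without LowMg-HFD replicate 2).

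The differences that changed sign were all uncalled. Lcn2 for fat at low Mg2+ (0.18) was -0.39 with quantile normalization and -0.79 with the mouse and filter changed together (-0.79 to 1.06 with 1 mouse left out). Orm1 for fat at normal Mg2+ (0.10) was -0.0065 with median centring, -0.10 with quantile normalization and -0.23 without the 3 duct libraries (-0.23 to 0.33), and for the interaction 0.050 without them (-0.40 to 0.16). Orm1 with 1 mouse left out ran from -0.18 to 0.027 for fat at low Mg2+ and from -0.018 to 0.54 for Mg2+ on the LFD, and Hp for Mg2+ on the LFD from -0.32 to 0.13. Cp for Mg2+ on the LFD was 0.025 with median centring and 0.016 without the duct libraries (-0.16 to 0.11). Fth1 for fat at low Mg2+ was -0.047 with median centring, and for Mg2+ on the LFD -0.26 with quantile normalization, -0.0041 with the replicate block and -0.018 without the duct libraries (-0.021 to 0.042). Tfrc for fat at low Mg2+ was 0.0019 without the duct libraries, and for Mg2+ on the LFD 0.016 with median centring, 0.030 with quantile normalization and 0.0031 without the duct libraries (-0.18 to 0.081). The cause was not tested.

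Replicate numbers did not pair the mice throughout: of 27 same-numbered pairs 5 had a correlation of their deviations over 0.1 (range -0.183 to 0.339), and 3 of 19 libraries correlated best with their own number. The highest values were those of NormMg-LFD replicate 4 with LowMg-LFD replicate 4 (0.339) and with LowMg-HFD replicate 4 (0.258). These are the libraries highest in duct genes, and the latter pair among them, LowMg-LFD with LowMg-HFD replicate 4, had 0.073. With the replicate block Fth1 for fat at normal Mg2+ was 0.30 (adjusted p = 0.064). FPKM without counts limit what can be said of genes at a few FPKM.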
